A study of Mus musculus with 2 samples.

Results

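GABAergic neurons were picked out of single-cell RNA libraries of the mouse thalamus by the transcripts they carried. A cell was chosen by the following rule: at least 500 genes, at least 5000 UMIs (unique molecular identifiers, each standing for 1 captured RNA molecule) and at most 15% mitochondrial UMIs, then at least 5 UMIs of Gad1 and Gad2 together, at least 5 of Snap25 and Syt1 together, and at most 2 of Slc17a6 and Slc17a7 together. The rule found 196 cells among 14546 filtered cells and 19996 deposited barcodes. Mouse 1 gave 66 cells, 1.1% of its 6019 filtered cells (exact binomial 95% interval 0.849 to 1.39%), and mouse 2 gave 130 cells, 1.52% of its 8527 (1.28 to 1.81%). The animals were 2 untreated wildtype C57BL/6J mice of 2 months, with 1 library each and no other genotype or treatment in the study. The dissected thalamus was dissociated with papain, a protease and dispase in choline chloride, and libraries were made with the 10X Genomics 3' kit.

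In the rodent thalamus most neurons are glutamatergic relay cells, and GABAergic neurons are concentrated in the thalamic reticular nucleus, a thin sheet that sends inhibition back to the relay nuclei, and in the ventral lateral geniculate nucleus and intergeniculate leaflet, with sparse local interneurons elsewhere. GABA is made from glutamate by the decarboxylases Gad1 and Gad2 and loaded into vesicles by the transporter Slc32a1. During development Gata2, Gata3, Tal1 and Sox14 act in midbrain and rostral thalamic GABAergic lineages, while Dlx genes and Isl1 act in the prethalamus, which gives rise to the reticular nucleus.

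The libraries held 163418203 UMIs in mouse 1 and 204839993 in mouse 2, and 36 barcodes occurred in both, none of them among the GABAergic cells. The same filters gave 267 and 1666 glutamatergic neurons (at least 5 UMIs of Slc17a6 and Slc17a7, at most 2 of Gad1 and Gad2, no Pou4f1, Chrnb3 or Chrnb4) and 131 and 289 habenular neurons (the same, with at least 2 UMIs of those 3 genes). GABAergic cells were 14.2% of the cells of these 3 neuron rules in mouse 1 (11.2 to 17.7%) and 6.24% in mouse 2 (5.24 to 7.36%), and what the dissection took, what survived dissociation and what the tissue holds cannot be told apart. Median depth was 45785 and 29741 UMIs per GABAergic cell, against 81368 and 46146 per glutamatergic cell, 54275 and 32533 per habenular cell, and 24744 and 14841 per oligodendrocyte. Intervals cover counting error only, and every p-value rests on 2 animals. Below, a pair of values gives mouse 1 and then mouse 2, and CPM is a gene's UMIs per 1000000 UMIs of the summed cells of a class.

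The values that chose the cells are given as a description. Gad1 and Gad2 together had a lowest, median and highest of 6, 84 and 954 UMIs per cell in mouse 1, and 5, 49 and 417 in mouse 2. Gad1 was at 1316 and 613 CPM and Gad2 at 1401 and 1251 CPM. Slc17a6, the vesicular glutamate transporter of most relay cells, was at 3.36 and 6.21 CPM in GABAergic cells, against 609 and 654 CPM in glutamatergic cells. Snap25, a vesicle fusion protein, was at 1691 and 1307 CPM in GABAergic cells and 2094 and 1944 CPM in glutamatergic cells.

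The label was checked with Slc32a1, which the rule did not use and which a cell needs to release GABA from vesicles. Slc32a1 was seen in 84.8% and 70.8% of GABAergic cells, against 0.643% and 0.257% of oligodendrocytes, which should lack it. Thinned to 5000 UMIs per cell, the shares were 62.1% and 40.8% in GABAergic cells and 0.234% and 0.0428% in oligodendrocytes. Gata3 was seen in 72.7% and 30.8% of GABAergic cells, against 0.292% and 0.0428% of oligodendrocytes, and Sst in 28.8% and 24.6%, against 1.87% and 1.07%.

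A group of cells in mouse 2 went against the label. Of its 130 cells, 23 carried at least 3 UMIs of Pdgfra and Cspg4, which mark oligodendrocyte precursors, and in mouse 1 there were 2 such cells. In mouse 2, 19 of the 23 had no Slc32a1 and 16 had no Gad2, and their Gad1 and Gad2 UMIs ran from 5 to 111 with a median of 6. Both cells of mouse 1 had Slc32a1. These cells are called precursor-marked, and the counts of called genes are given with and without them. The shares, the Slc32a1 check, most list counts and the Fano factors below include them.

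The threshold passed through these cells. Just inside it, 1 cell and 19 cells had 5 or 6 Gad1 and Gad2 UMIs, and in the 19 of mouse 2 Pdgfra was at 727 CPM and Slc32a1 at 7.27 CPM. Just outside it, 18 and 56 cells had 3 or 4 such UMIs, with Pdgfra at 1150 and 1135 CPM and no Slc32a1. The 65 and 102 cells with 10 or more had Pdgfra at 6.43 and 19.9 CPM and Slc32a1 at 368 and 247 CPM. On the glutamatergic side, 11 and 29 of the cells had 1 or 2 Slc17a6 and Slc17a7 UMIs, and 0 and 3 cells just outside had 3 or 4.

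**Figure D1:**
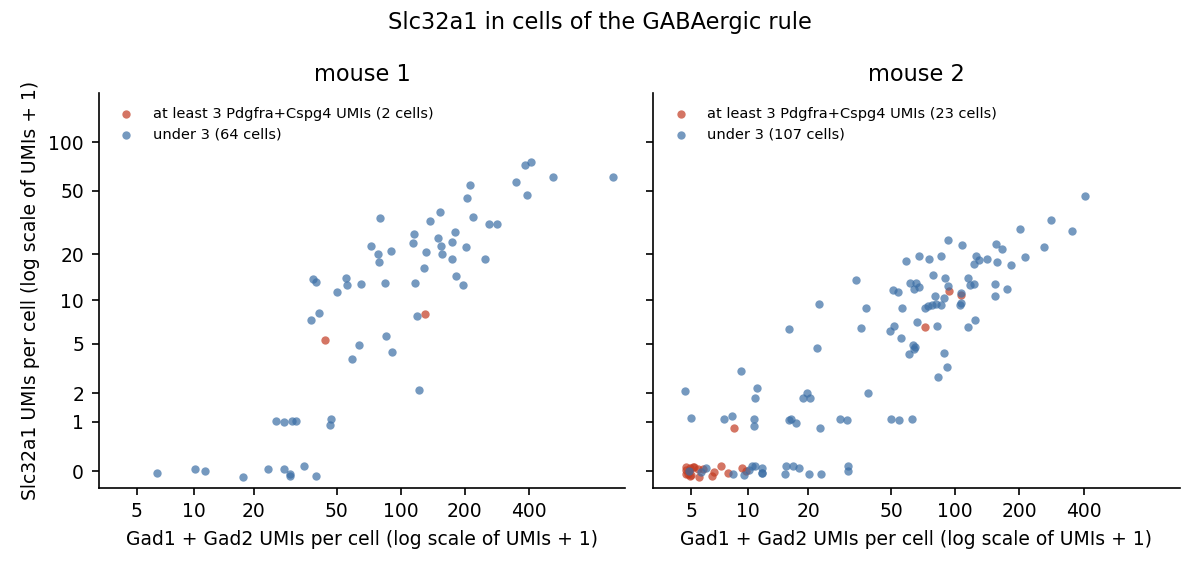
Slc32a1 UMIs per cell against Gad1 plus Gad2 UMIs per cell in each mouse, both on a log scale of UMIs + 1; each point is 1 cell of the GABAergic rule, with a small jitter. Cells with at least 3 Pdgfra and Cspg4 UMIs are red (2 in mouse 1, 23 in mouse 2), and most red cells of mouse 2 sit at the lower left, with a median of 6 Gad1 and Gad2 UMIs.

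GABAergic cells differed from glutamatergic cells in the transcription factors of their lineages, in Slc32a1 and in several peptides. UMIs were summed per mouse and class and compared with edgeR's quasi-likelihood test with mouse in the model, and a gene was called when its Benjamini-Hochberg adjusted p was below 0.05 and its log2 fold change at least 1 in size. Among the 18232 genes in the test, 539 (2.96%) passed as higher and 685 (3.76%) as lower, with a median log2 fold change of -0.07 over all genes. Of the 1224 called genes, 1217 had the same direction in both mice. Calling genes at this fold change favours such agreement. Here and below, a shared direction or values that do not overlap describe genes already called and add no separate support. Without the precursor-marked cells, 482 of 18308 genes (2.63%) were higher and 742 (4.05%) lower, and 1105 genes were called in both fits. With size factors as in DESeq2 in place of TMM scaling, the split was 562 higher and 549 lower.

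In the list of GABA synthesis, release and uptake, 3 of 14 tested genes rose and none fell, with a median of 0.17. Among all genes 2.96% were higher and 3.76% lower. Slc32a1 was at 367 and 216 CPM in GABAergic cells, against 0.173 and 0.125 CPM in glutamatergic cells (log2 fold change 10.61 ± 0.36 SE, edgeR adjusted p = 1.28e-07). Both GABAergic values lay far above both glutamatergic values. Aldh5a1, which breaks GABA down further in the mitochondrion, was at 69.9 and 49 CPM, against 25.9 and 24.6 CPM in glutamatergic cells (1.03 ± 0.22, edgeR adjusted p = 0.0177). Its fold change lies near the limit of 1, and its call was lost in 4 of 13 alternatives. The GABA transaminase Abat (0.60 ± 0.31, edgeR adjusted p = 0.329) and the chloride exporter Slc12a5 (-0.37 ± 0.37, edgeR adjusted p = 0.664) were not called.

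Among 38 tested transcription factors of GABAergic lineages, of 43 listed, 26 were called higher and 2 lower, with a median log2 fold change of 3.90, beside 2.96% and 3.76% of all genes. The median was also 3.90 with the 4 genes that had no UMI on one side set at their bound, and without the precursor-marked cells 25 were higher and 3 lower. Six3, a homeobox factor of the reticular nucleus, was at 301 and 218 CPM in GABAergic cells, against 0.0863 and 0.224 CPM in glutamatergic cells (10.32 ± 0.55, edgeR adjusted p = 9.65e-06). Meis2 was at 224 and 317 CPM, against 0.906 and 0.56 CPM (8.42 ± 0.46, edgeR adjusted p = 9.65e-06). Gata3 was at 77.2 and 39.8 CPM, with 253 and 173 UMIs, against 0 and 3 UMIs in glutamatergic cells (edgeR adjusted p = 7.64e-05). The GABAergic and glutamatergic values of these 3 genes did not overlap.

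Factors of the midbrain and rostral thalamic lineages were present beside prethalamic ones. Tal1 was at 46.1 and 20.5 CPM, against 0.777 and 0.262 CPM in glutamatergic cells (5.89 ± 0.37, edgeR adjusted p = 1.6e-05), and Gata2 was at 11.3 and 8.51 CPM, against 0.734 and 0.286 CPM. Sox14 had 240 and 48 UMIs, against 1 and 0 UMIs in glutamatergic cells. Otx2 was at 106 and 28.7 CPM, against 1.25 and 0.486 CPM (6.01 ± 0.47, edgeR adjusted p = 7.64e-05), and the higher value was mouse 1's for each of these 4 genes. Isl1, a LIM homeobox factor, was at 33.3 and 45.1 CPM, against 0.0432 and 0.0747 CPM (9.0 ± 0.66, edgeR adjusted p = 0.000528), here with the higher value in mouse 2.

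The prethalamic Dlx5, Dlx6 and Sp8 had no UMI in any of the 1933 glutamatergic cells. Against a floor of 3 UMIs over both mice's glutamatergic cells, Dlx6 was at least 403-fold higher, Dlx5 at least 194-fold and Sp8 at least 167-fold. Dlx6 was nevertheless seen in 18.2% and 20.8% of GABAergic cells, and Dlx5 in 16.7% and 14.6%. Dlx6 overlaps Dlx6os1 on the opposite strand, and the sources used here do not state how reads of such pairs were assigned. Prox1 was lower, at 14 and 37.5 CPM in GABAergic cells, against 128 and 193 CPM in glutamatergic cells, and so was Zic1, at 75.1 and 87.4 CPM, against 362 and 245 CPM.

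Genes of relay neurons were lower. Of 16 tested glutamatergic thalamic genes, 11 fell and none rose, with a median of -2.85, beside 3.76% lower and 2.96% higher of all genes. Gbx2, a homeobox factor of developing relay nuclei, was at 0 and 1.38 CPM in GABAergic cells, against 34.1 and 66.3 CPM in glutamatergic cells (-6.48 ± 0.60, edgeR adjusted p = 0.000192). Lhx2 had no UMI in the GABAergic cells of either mouse and was at least 108-fold lower than its 27.3 and 47 CPM in glutamatergic cells. Prkcd, a protein kinase C, was at 7.33 and 7.36 CPM, against 655 and 239 CPM. Tcf7l2 was called lower but stayed well above 0, at 484 and 412 CPM, against 1369 and 1374 CPM (-1.81 ± 0.30, edgeR adjusted p = 0.00444).

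Marker lists of neighbouring GABAergic populations were set beside each other. Of 11 reticular nucleus genes 9 were higher and none lower, with a median of 4.70, and of 14 tested genes of the ventral lateral geniculate and pretectum 8 were higher and 2 lower, with a median of 4.17. Of 8 tested genes of telencephalic interneurons 2 were higher (Reln and Nr2f2) and 1 lower (Prox1). The counts of these 3 lists stand beside 2.96% higher and 3.76% lower of all genes. The lists share genes, so their counts are not separate from each other or from those of the lineage factors and peptides. Six3, Isl1 and Meis2 of the reticular list are also lineage factors. So are Gata3, Lhx1, Lhx5, Otx2 and Sox14 of the second list, and Nr2f2 and Prox1 of the third. Sst is in the first 2 lists and, with Npy and Penk, among the peptides. Pvalb, a calcium buffer of reticular neurons, was at 704 and 288 CPM in GABAergic cells, against 24 and 7.29 CPM in glutamatergic cells (4.83 ± 0.52, edgeR adjusted p = 0.000442). Ecel1, an endopeptidase, was at 13.7 and 31.3 CPM, against 0.388 and 1.51 CPM, and the T-type calcium channel genes Cacna1h and Cacna1i rose by 2.74 ± 0.54 and 1.90 ± 0.34 on the log2 scale. Calb1 and Calb2, calcium buffers that the second list holds, were lower, Calb1 at 13.4 and 15.9 CPM, against 190 and 275 CPM.

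Peptide genes went in both directions. Of 24 tested, 7 rose and 3 fell, with a median of 0.11, beside 2.96% higher and 3.76% lower of all genes. Somatostatin (Sst) was at 496 and 231 CPM in GABAergic cells, against 0.561 and 9.37 CPM in glutamatergic cells (6.65 ± 1.19, edgeR adjusted p = 0.00672). Vasopressin (Avp) was at 18.6 and 21.4 CPM, against 0.129 and 0.0125 CPM (8.35 ± 0.93, edgeR adjusted p = 0.000714), and was seen in only 10.6% and 10% of GABAergic cells. Thyrotropin-releasing hormone (Trh) was at 4.58 and 16.3 CPM, against 0.0432 and 0.349 CPM (5.51 ± 0.81, edgeR adjusted p = 0.00399), and proenkephalin (Penk) at 30.2 and 15.4 CPM, against 1.08 and 1.98 CPM. Adcyap1 was at 0.305 and 0.92 CPM, against 8.24 and 14.8 CPM, and galanin (Gal) at 1.53 and 0.92 CPM, against 8.68 and 28.9 CPM, both called lower.

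**Figure D2:**
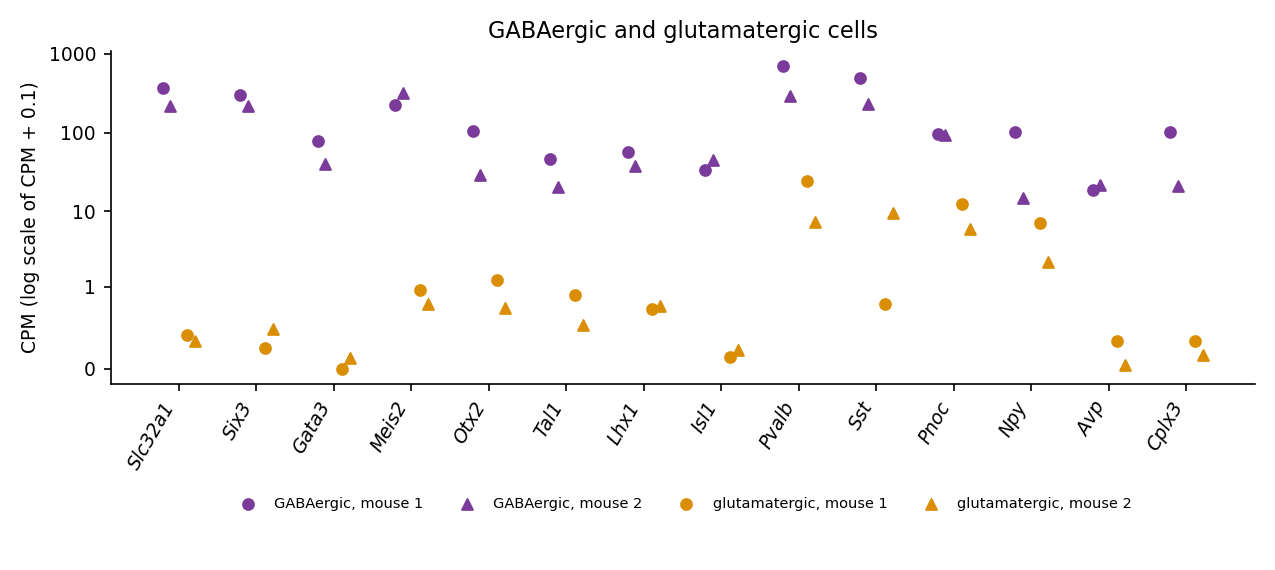
Level of 14 genes in GABAergic cells (purple, left of each pair) and glutamatergic cells (orange, right), in CPM of summed UMIs on a log scale of CPM + 0.1; circles are mouse 1 and triangles mouse 2. Slc32a1 lies at 367 and 216 CPM in GABAergic cells and at 0.173 and 0.125 CPM in glutamatergic cells.

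Receptor genes also went in both directions. Of 51 tested neuromodulator receptors 10 rose and 8 fell, with a median of -0.07, beside 2.96% and 3.76% of all genes. The alternatives gave 2 to 10 higher and 4 to 10 lower, with 2 and 4 in the fit without the replicate block. The serotonin receptor gene Htr2a was at 43.3 and 23 CPM in GABAergic cells, against 0.302 and 1.21 CPM in glutamatergic cells (5.34 ± 0.85, edgeR adjusted p = 0.00484), and Htr4 was at 35.4 and 51.7 CPM, against 3.63 and 8.56 CPM (2.69 ± 0.38, edgeR adjusted p = 0.00204). The vasoactive intestinal peptide receptor gene Vipr2 was at 3.97 and 5.29 CPM, against 66.1 and 25.4 CPM (-3.47 ± 0.49, edgeR adjusted p = 0.00174). The groups did not overlap for any of the 3.

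Of 39 potassium channel genes 3 rose and 6 fell (median -0.50), of 19 calcium and HCN channel genes 3 rose and 4 fell (median -0.31), and of 12 sodium channel genes only Fgf13, a channel-binding growth factor homologue, passed the test, at 203 and 246 CPM in GABAergic cells, against 502 and 657 CPM in glutamatergic cells. Kcns3, a silent potassium channel subunit, was at 16.5 and 27.4 CPM, against 1.29 and 0.747 CPM (4.24 ± 0.65, edgeR adjusted p = 0.00256). The channel-binding Kcnip1 was at 251 and 357 CPM, against 27.7 and 106 CPM (2.05 ± 0.48, edgeR adjusted p = 0.0279). Kcnab1, an auxiliary subunit, was at 13.4 and 72.4 CPM, against 279 and 358 CPM (-3.31 ± 0.44, edgeR adjusted p = 0.00144). Of 19 tested GABA and glycine receptor genes none rose and 3 fell, and of 33 glutamate receptor genes 1 rose and 6 fell. These counts stand beside 2.96% higher and 3.76% lower of all genes, and 1 higher glutamate receptor of 33 is near that background. Over the alternatives the higher and lower counts were 1 to 3 and 4 to 7 potassium channels, 2 to 3 and 3 to 4 calcium and HCN channels, 0 and 2 to 4 GABA and glycine receptors, and 1 to 2 and 5 to 7 glutamate receptors. Gabra3 (0.31 ± 0.47, edgeR adjusted p = 0.790) was not called.

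In the release and adhesion lists, 3 of 30 vesicle genes rose and 6 fell (median -0.35), and 3 of 53 synapse organisers rose and 7 fell (median -0.24), beside 2.96% and 3.76% of all genes. The higher count of the synapse organisers is near that background, and over the alternatives it was 2 to 5, with 4 to 8 lower. The vesicle genes gave 2 to 4 higher and 5 to 7 lower. Cplx3, a complexin that clamps vesicle fusion, was at 103 and 20.7 CPM in GABAergic cells, against 0.129 and 0.0498 CPM in glutamatergic cells (8.93 ± 0.68, edgeR adjusted p = 5.67e-05). The vesicle protein gene Sv2b was called lower, at 34.2 and 36.1 CPM, against 186 and 173 CPM, while its paralog Sv2c was called higher, at 19.8 and 36.8 CPM, against 7.34 and 4.73 CPM. The synapse organisers Cbln1 (-3.93 ± 0.65, edgeR adjusted p = 0.00457) and Cbln4 (-3.24 ± 0.42, edgeR adjusted p = 0.00128) were lower.

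**Figure D3:**
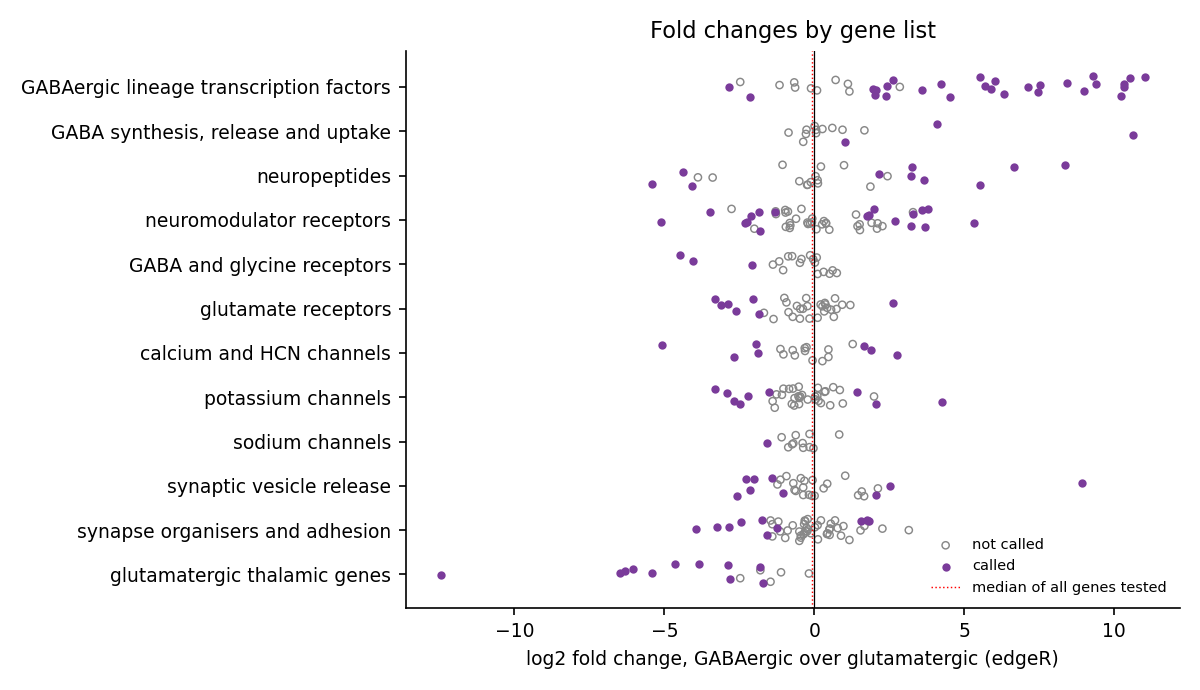
edgeR log2 fold change of GABAergic over glutamatergic cells for each tested gene of 12 gene lists; filled points were called and open ones were not, and the dotted line is the median of all genes tested, -0.07. The lineage transcription factors lie to the right, with a median of 3.90, and the glutamatergic thalamic genes to the left, with a median of -2.85.

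Outside the lists, the called genes that were highest over glutamatergic cells included Otx2os1, at 415 and 163 CPM, against 0.432 and 2.08 CPM, which overlaps Otx2 on the opposite strand. Ubash3b, a phosphatase, was at 289 and 288 CPM, against 15.4 and 13.2 CPM (4.14 ± 0.26, edgeR adjusted p = 1.6e-05). L3mbtl4, Cadps2, Ndst4, Qpct, Zfpm2 and Pdzd2 rose by 3.60 to 4.92 on the log2 scale. The lower ones were Nrn1, a membrane-bound neurotrophic factor, at 0.916 and 4.14 CPM, against 242 and 312 CPM (-7.07 ± 0.58, edgeR adjusted p = 9.32e-05), with Ctxn3, Wnt4 and Abhd12b.

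Markers of other cells moved with some of these results. Of 7 oligodendrocyte precursor markers 3 were called higher (Pdgfra, Cspg4 and C1ql1) with a median of 2.75, beside 2.96% of all genes. Without the precursor-marked cells none passed the test and the median was -1.03. Pdgfra was at 6.41 and 103 CPM in GABAergic cells, against 0.388 and 4.5 CPM in glutamatergic cells (4.12 ± 0.51, edgeR adjusted p = 0.000875), and its log2 fold change was -2.12 without them. The matrix gene Vcan was called in both fits, at 3.74 ± 0.57 with all cells and 1.88 without the precursor-marked ones. None of the 7 tested oligodendrocyte markers was called, though over the alternatives 0 to 7 were lower. Their summed level was 432 and 3147 CPM in GABAergic cells, against 791 and 909 CPM in glutamatergic cells. Of the GABAergic cells, 23 of 66 and 25 of 130 had at least 3 UMIs of an oligodendrocyte, astrocyte, microglia or endothelial marker pair. Leaving these cells out gave 516 genes higher and 860 lower against glutamatergic cells, and 1050 and 1004 against habenular cells. Of the immediate early genes only Nr4a2 was called, and the summed level of the list was 393 and 2566 CPM in GABAergic cells, against 447 and 1384 CPM in glutamatergic cells. The part that these markers had in the results was not tested. Globin genes were high in 2 cells of mouse 1, up to 13861 UMIs in a cell, and without them the counts against glutamatergic cells were 536 higher and 682 lower.

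Habenular neurons, from the habenula on top of the thalamus, gave another comparison in the same fit. The class holds cells with Pou4f1, Chrnb3 or Chrnb4 UMIs, and medial and lateral habenula were not separated. Habenular cells with no UMI of these genes would be counted as glutamatergic here. Of 18232 genes 1080 (5.92%) were higher in GABAergic cells and 792 (4.34%) lower, with a median of -0.02 over all genes. Of these 1872 genes 1868 had the same direction in both mice, and 1741 were also called without the precursor-marked cells. The GABAergic cells are the same as in the comparison with glutamatergic cells, so the values below are given on their own.

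The 6 tested habenular markers were all lower, with a median of -7.28, and the habenular cells had been gated on other genes of that structure. Tac2, neurokinin B, was at 3.66 and 10.6 CPM in GABAergic cells, against 1290 and 873 CPM in habenular cells, and Nwd2 at 146 and 61.6 CPM, against 5320 and 3921 CPM. Of 9 tested genes of other transmitters 3 were lower (Chat, Slc18a3 and Slc5a7) and none was higher, beside 4.34% and 5.92% of all genes. Slc18a3, the vesicular acetylcholine transporter, had no UMI in GABAergic cells and was at least 181-fold lower than its 104 and 47.2 CPM in habenular cells, and Slc5a7, the choline transporter, was at 0.61 and 4.6 CPM, against 473 and 258 CPM (-7.21 ± 0.63, edgeR adjusted p = 7.34e-05).

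Of 19 tested GABA and glycine receptor genes, 10 were higher and 2 lower in GABAergic cells, with a median of 2.49, beside 5.92% and 4.34% of all genes. The alternatives gave 3 to 12 higher and 2 to 3 lower, with the 3 in the fit without the replicate block. Gabrg3 was at 676 and 759 CPM in GABAergic cells, against 21.9 and 116 CPM in habenular cells (3.72 ± 0.70, edgeR adjusted p = 0.00657). The glycine receptor gene Glra2 was at 32.7 and 41.4 CPM, against 1.92 and 1.86 CPM (4.23 ± 0.52, edgeR adjusted p = 0.000546). The metabotropic GABA receptor gene Gabbr2 went the other way, at 241 and 232 CPM, against 1587 and 1459 CPM (-2.79 ± 0.52, edgeR adjusted p = 0.00612).

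Of 33 glutamate receptor genes 13 rose and 5 fell (median 0.75), of 39 potassium channel genes 12 rose and 4 fell (median 0.99), and of 51 neuromodulator receptors 18 rose and 5 fell (median 2.04). These counts stand beside 5.92% higher and 4.34% lower of all genes. Over the alternatives the higher counts were 4 to 14 glutamate receptors, 8 to 16 potassium channels and 11 to 21 neuromodulator receptors, each lowest without the replicate block. Kcnc1, a fast delayed rectifier, was at 286 and 206 CPM in GABAergic cells, against 13.7 and 20.4 CPM in habenular cells (3.78 ± 0.43, edgeR adjusted p = 0.000392). Kcnma1, the large-conductance calcium-activated channel, was at 877 and 987 CPM, against 10018 and 7020 CPM (-3.29 ± 0.39, edgeR adjusted p = 0.000432). The nicotinic subunit gene Chrna3 was called lower, at 11.6 and 1.15 CPM, against 337 and 237 CPM, and the orexin receptor gene Hcrtr2 higher, at 34.2 and 19.5 CPM, against 0.411 and 2.94 CPM.

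Lineage factors were again higher, 25 of 38 with 2 lower and a median of 3.38 (also 3.38 with 9 genes at their bound). Among all genes 5.92% were higher and 4.34% lower, and the alternatives gave 15 to 25 higher lineage factors. Gata3, Isl1, Lhx1 and Sox14 had no UMI in the 420 habenular cells and were at least 326-fold, 233-fold, 268-fold and 220-fold higher against a floor of 3 UMIs over both mice. The B-cell factor family member Ebf1 was lower, at 17.7 and 34 CPM, against 535 and 359 CPM, and the calcium channel subunit gene Cacnb3 was at 25.3 and 20.2 CPM, against 509 and 404 CPM (-4.42 ± 0.21, edgeR adjusted p = 1.37e-06). Nrxn3, a presynaptic adhesion molecule, was at 5120 and 4943 CPM, against 122 and 315 CPM (4.65 ± 0.76, edgeR adjusted p = 0.00304). Pdgfra was called higher here too (5.32 ± 0.61, edgeR adjusted p = 0.000354) and was at -0.95 without the precursor-marked cells.

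The GABAergic cells divided by Gata3 and Six3. With at least 2 UMIs as the limit, 43 of 66 cells in mouse 1 were Gata3-positive (65.2%, exact binomial 95% interval 52.4 to 76.5%) and 30 of 130 in mouse 2 (23.1%, 16.1 to 31.3%). Six3-positive cells were 17 (25.8%, 15.8 to 38%) and 51 (39.2%, 30.8 to 48.2%). Only 3 and 5 cells passed both limits, 40 and 25 passed that of Gata3 alone, and 14 and 46 that of Six3 alone. The remaining 9 and 54 cells passed neither, and 20 of the 54 were precursor-marked. Thinned to 5000 UMIs per cell, 20 and 18 cells kept a Gata3 UMI, 13 and 40 a Six3 UMI, and 1 and 0 cells had both. Those Gata3 shares on thinned UMIs were 30.3% (19.6 to 42.9%) and 13.8% (8.42 to 21%), with intervals that overlap. The limit of 2 UMIs depends on the depth of a cell, whose median was 45785 (mouse 1) and 29741 UMIs (mouse 2), and depth, dissection and cell recovery cannot be told apart from the animal. Cells with no UMI of the gene were called negative, 18 and 90 for Gata3 and 47 and 66 for Six3.

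**Figure D4:**
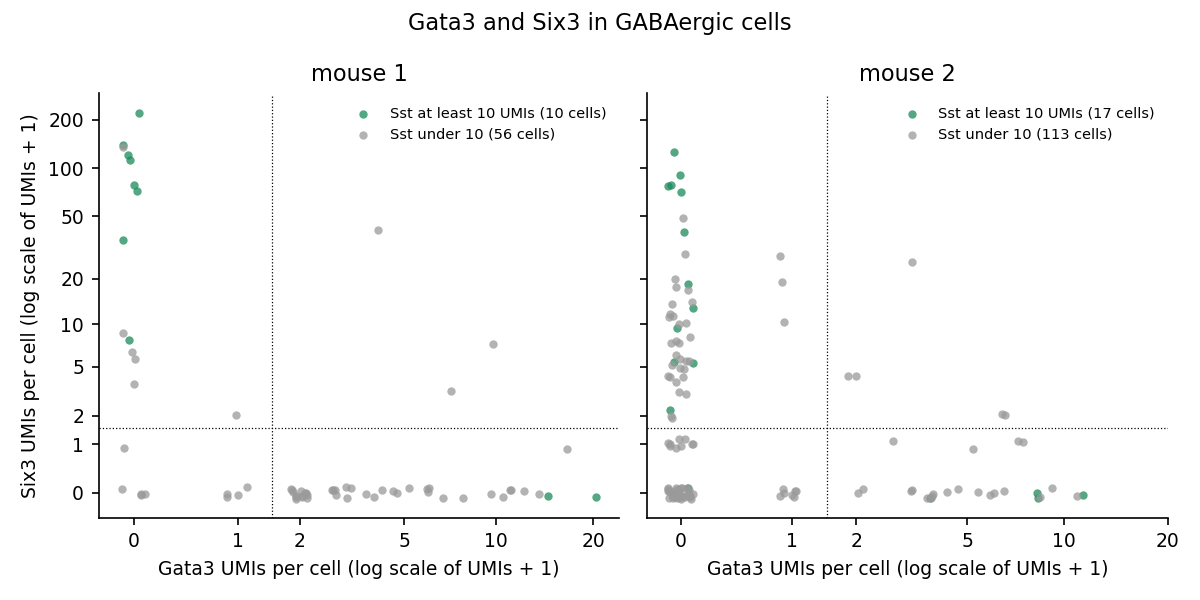
Six3 UMIs per cell against Gata3 UMIs per cell in each mouse, on a log scale of UMIs + 1 with a small jitter; each point is 1 GABAergic cell, dotted lines mark the limit of 2 UMIs, and green cells have at least 10 Sst UMIs (10 in mouse 1, 17 in mouse 2). Most cells lie along one axis or the other, and 3 and 5 cells lie beyond both lines.

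Gata3-positive cells had higher Tal1, Sox14, Otx1, Otx2 and Bcl11b and lower Isl1, Pax6, Prox1 and Six3 than Gata3-negative cells. In sums of both kinds fitted with the other classes, 17 of 18069 genes (0.0941%) were higher in Gata3-positive cells and 59 (0.327%) lower, with a median of -0.03, and all 76 had the same direction in both mice. Without the precursor-marked cells 18 of 18090 (0.0995%) were higher and 62 (0.343%) lower, and 67 genes were called in both. Cells with Gata3 alone against cells with Six3 alone gave 39 of 18146 genes higher (0.215%) and 74 lower (0.408%). The Gata3 difference itself is the split and was left out of the test. With the split made on thinned UMIs, where cells that lost their Gata3 UMIs count as negative, 1 gene was higher and 20 were lower, and the calls of Tal1, Sox14 and Otx2 were lost (edgeR adjusted p of up to 0.768, 0.87 and 0.954 over the alternatives). Globin moved with the split in mouse 1: the summed level of the 5 erythroid genes was 9955 and 38.5 CPM in Gata3-positive cells, against 146 and 33.3 CPM in Gata3-negative cells, with a median log2 fold change of 5.30 and no call. Without the cells rich in haemoglobin UMIs, a setting chosen after seeing the data, 18 genes were higher and 49 lower.

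Of 37 lineage factors tested, 5 were higher and 5 lower in Gata3-positive cells, beside 0.0941% and 0.327% of all genes. The alternatives gave 0 to 5 higher and 1 to 9 lower. Tal1, a partner of Gata factors in midbrain GABAergic neurons, was at 64.1 and 50.7 CPM in Gata3-positive cells, against 4.17 and 4.9 CPM in Gata3-negative cells (3.44 ± 0.42, edgeR adjusted p = 0.00379). Sox14 was at 97.8 and 28 CPM, against 6.25 and 3.85 CPM (3.31 ± 0.55, edgeR adjusted p = 0.0336), and Otx2 at 142 and 70.8 CPM, against 1.04 and 13 CPM (3.34 ± 0.60, edgeR adjusted p = 0.0407), a call that was lost without the precursor-marked cells. Of 9 alternatives Otx2 lost its call in 5, Sox14 in 4 (one of them the setting without haemoglobin-rich cells) and Tal1 in 2. Both Gata3-positive values lay above both Gata3-negative values for all 3 genes. Isl1 had no UMI in Gata3-positive cells, against 109 and 196 UMIs in Gata3-negative cells, and was at least 87.5-fold lower (edgeR adjusted p = 0.00936). The call of Isl1 held in all 9 alternatives (adjusted p of up to 0.0474). Pax6 had 0 and 2 UMIs, against 49 and 170 UMIs, and lost its call in 2 of 9.

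The upstream sequence of Tal1 is shown because its log2 fold change was above those of Sox14 and Otx2, the other higher lineage factors with values above. Gata3 lies at chr2:9857078-9890034 on the minus strand of GRCm38, Six3 at chr17:85613608-85629302 on the plus strand, and Tal1 at chr4:115056426-115071755 on the plus strand. The 60 bases below are from RefSeq on GRCm38.p6, chr4:115056194-115056253, plus strand, 5′ to 3′, and the capitals mark TTATCT, the reverse complement of AGATAA, a core letter string of Gata sites, which begins 205 bases before the annotated start.
Tal1 upstream: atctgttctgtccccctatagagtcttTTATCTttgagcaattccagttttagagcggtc
Letters AGATAA or TTATCT on either strand occurred in the 250 bases before an annotated start of 3090 of 27025 genes with a sequence (11.4%), of 1003 of 13133 genes tested (7.64%), of 3 of 13 genes called higher in Gata3-positive cells (23.1%) and of 5 of 51 called lower (9.8%). The other higher genes were Otx2 and Tcf7l2, at internal starts. A gene was counted when any of its annotated starts had the letters, which favours genes with more starts. A match is a description and shows no binding.

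Of 11 reticular nucleus genes none was higher in Gata3-positive cells and 5 were lower (Ecel1, Esrrg, Isl1, Pvalb and Six3), with a median of -4.45. Among all genes 0.0941% were higher and 0.327% lower. Pvalb was at 11.7 and 4.37 CPM in Gata3-positive cells, against 2376 and 436 CPM in Gata3-negative cells (-7.26 ± 0.76, edgeR adjusted p = 0.00225). Six3 was at 25.3 and 35 CPM, against 968 and 298 CPM (-4.45 ± 0.60, edgeR adjusted p = 0.00917). Esrrg, an orphan nuclear receptor, was at 142 and 203 CPM, against 843 and 529 CPM (-2.04 ± 0.36, edgeR adjusted p = 0.0298). Esrrg lost its call in 2 of 9 alternatives (edgeR adjusted p of up to 0.102) and Six3 in 1 of 8 (up to 0.0841), while Pvalb kept its call in all 9. Ecel1 had no UMI, against 46.9 and 37.8 CPM, and was at least 43.9-fold lower. Sst was at 38.8 and 58.5 CPM, against 1606 and 328 CPM, and did not pass the test (-4.70 ± 1.20, edgeR adjusted p = 0.179). Of 13 tested ventral lateral geniculate and pretectal genes 3 were higher (Calb2, Sox14 and Otx2), and only 1 without the precursor-marked cells. Isl1, Six3, Sox14 and Otx2 were already counted among the lineage factors.

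Genes of other kinds were also called. With the split on thinned UMIs the calls of Nr4a2, Cbln2, Asic4, Kcnq5, Tcf7l2, Cpne9, Nwd2 and Calb2 were lost. Nr4a2, an orphan nuclear receptor, was at 67.4 and 125 CPM in Gata3-positive cells, against 1.04 and 4.2 CPM in Gata3-negative cells (5.03 ± 0.57, edgeR adjusted p = 0.00334). Cbln2, a synapse organiser, was at 67.4 and 194 CPM, against 9.38 and 8.75 CPM (3.78 ± 0.53, edgeR adjusted p = 0.0106), and Asic4, of the acid-sensing channel family, at 82.8 and 69.9 CPM, against 1.04 and 5.6 CPM (4.19 ± 0.62, edgeR adjusted p = 0.0111). Kcnq5, which carries M-type potassium current, was at 732 and 728 CPM, against 112 and 187 CPM (2.36 ± 0.34, edgeR adjusted p = 0.00917). The values of the 2 kinds of cell did not overlap for these genes. Tcf7l2, Cpne9, Nwd2 and Calb2 rose by 1.73 to 3.03 on the log2 scale, and Calb2 lost its call without the precursor-marked cells.

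On the lower side stood the calcitonin receptor partner Ramp3, at 1.4 and 2.62 CPM in Gata3-positive cells, against 281 and 58.5 CPM in Gata3-negative cells (-6.46 ± 0.79, edgeR adjusted p = 0.00491), and the kainate receptor gene Grik3, at 15.9 and 15.7 CPM, against 153 and 122 CPM (-3.14 ± 0.33, edgeR adjusted p = 0.00194). Il1rapl2, a synaptic adhesion gene, was at 36.5 and 32.3 CPM, against 461 and 400 CPM (-3.69 ± 0.38, edgeR adjusted p = 0.00194), and the guidance cue Sema3e at 4.21 and 2.62 CPM, against 114 and 90.3 CPM (-4.81 ± 0.53, edgeR adjusted p = 0.00253). Coch, Tmem132c and Cabp1 were also lower, and Six3os1, which overlaps Six3 on the opposite strand, was at 2.81 and 5.24 CPM, against 75 and 38.5 CPM. Over 9 alternatives Six3os1 lost its call in 5, Tmem132c in 4, Cabp1 in 3 and Ramp3 in 1. Grik3, Il1rapl2, Sema3e and Coch kept theirs in all 9. Avp and Kcng4, a silent potassium channel subunit, had no UMI in Gata3-positive cells and were at least 44.2-fold and 29.2-fold lower. Slc32a1 (0.10 ± 0.22, edgeR adjusted p = 0.976) was not called.

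In the split by Six3, the summed erythroid genes were at 170 and 27.8 CPM in Six3-positive cells, against 9768 and 34.4 CPM in Six3-negative cells, and none was called. Of 18078 genes 20 (0.111%) were higher in Six3-positive cells and 9 (0.0498%) lower, with a median of -0.03, and without the precursor-marked cells 34 of 18107 (0.188%) were higher and 16 (0.0884%) lower, with 27 called in both. Pvalb was at 2269 and 581 CPM in Six3-positive cells, against 11 and 6.36 CPM in Six3-negative cells (7.21 ± 0.69, edgeR adjusted p = 0.00233). Avp was at 60.7 and 43.8 CPM, with no UMI in Six3-negative cells, and was at least 66.7-fold higher (edgeR adjusted p = 0.016). Ramp3 was at 269 and 71.5 CPM, against 0.918 and 5.3 CPM (5.74 ± 0.72, edgeR adjusted p = 0.01), and Coch, a cochlear matrix protein, at 62.7 and 55.5 CPM, against 1.38 and 1.59 CPM (5.31 ± 0.56, edgeR adjusted p = 0.00258). The groups did not overlap for these 4 genes.

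Lancl3, Inpp5j, Plch1, Ubash3b and Cabp1 rose by 1.57 to 3.52 on the log2 scale in Six3-positive cells, and Six3os1, which shares its locus with the gene that made the split, by 5.84. Kcnq5 was at 32.8 and 168 CPM in Six3-positive cells, against 689 and 561 CPM in Six3-negative cells (-2.98 ± 0.49, edgeR adjusted p = 0.0438). Cadps2, a vesicle priming gene, was at 24.9 and 63.1 CPM, against 329 and 269 CPM (-2.84 ± 0.45, edgeR adjusted p = 0.0381), and Plppr1 and Marcks were lower too, Marcks without a call once the precursor-marked cells were left out. Over 9 alternatives Marcks lost its call in 5, Plch1 and Six3os1 in 4 each, and Inpp5j, Cabp1, Kcnq5 and Cadps2 in 3 each. Plppr1 lost its call in 2, Ubash3b, Avp and Ramp3 in 1 each, and Lancl3, Pvalb and Coch in none. With neuron classes alone, 10 genes of the naming rule lost their call in this split and 4 kept it. Of 10 tested reticular nucleus genes only Pvalb was called, with a list median of 2.96, beside 0.111% higher of all genes. Isl1 was at 108 and 81.4 CPM, against 0 and 9.54 CPM, and was not called (4.64 ± 0.97, edgeR adjusted p = 0.159).

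Cell by cell, the sets defined by 1 factor alone differed in what else they carried, given here as a description. Isl1 was seen in 0 of 40 and 0 of 25 cells with Gata3 alone, and in 12 of 14 and 30 of 46 cells with Six3 alone. Tal1 was seen in 39 of 40 and 17 of 25 cells with Gata3 alone, and in 2 of 14 and 5 of 46 with Six3 alone. Avp was seen in none of the cells with Gata3 alone, and in 7 of 14 and 13 of 46 with Six3 alone. Adarb2, an RNA-editing family member, was at 2057 and 1762 CPM with Gata3 alone, against 47 and 115 CPM with Six3 alone, and Foxp2 at 214 and 69.8 CPM, against 2.41 and 15.9 CPM.

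The cells that passed neither limit, the precursor-marked ones left out, numbered 9 and 34, and some of them had 1 Gata3 UMI. In mouse 1 Isl1 was seen in 0 of the 9, and Otx2 and Tal1 in 5 each. In mouse 2, with the precursor-marked cells included, Isl1 was seen in 10 of 54, Otx2 in 11 and Tal1 in 7. Over the 9 and 34 cells Otx2 was at 136 and 47.8 CPM and Lhx1 at 94.2 and 45.4 CPM, while Dlx6 was at 16.2 and 16.7 CPM. Pvalb was at 0 and 13.1 CPM and Avp had no UMI. The 3 and 5 cells that passed both limits had no Isl1, Dlx5 or Dlx6 UMI, and Tal1 was at 57.1 and 87 CPM in them.

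**Figure D5:**
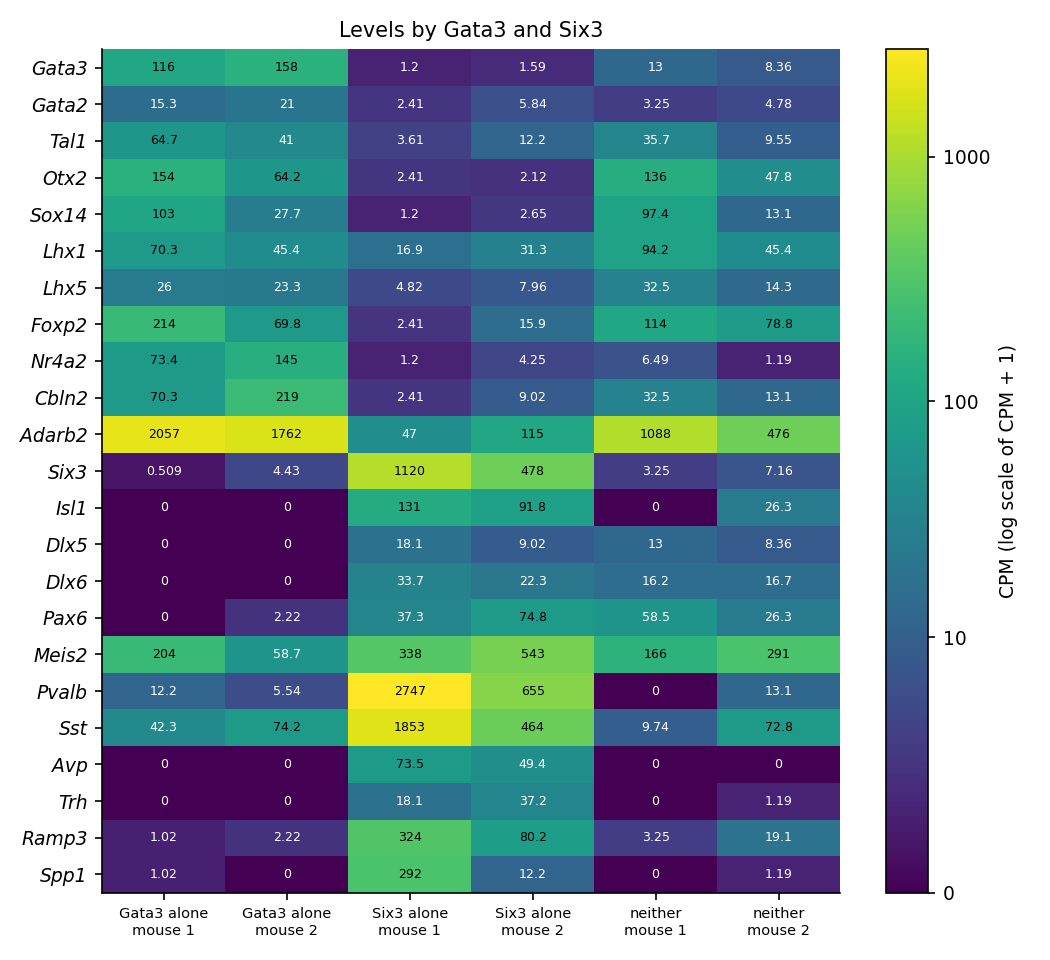
Level of 23 genes in GABAergic cells with Gata3 alone, with Six3 alone and with neither (precursor-marked cells left out) in each mouse, as CPM of summed UMIs printed in each field and coloured on a log scale of CPM + 1. Isl1 reads 0 and 0 with Gata3 alone and 131 and 91.8 with Six3 alone.

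Somatostatin was carried at high level by few cells. Cells with at least 10 Sst UMIs numbered 10 of 66 (15.2%, 7.51 to 26.1%) and 17 of 130 (13.1%, 7.81 to 20.1%), too few for a test by mouse. They were 8 of 14 and 12 of 46 of the cells with Six3 alone, and 2 of 40 and 4 of 25 of those with Gata3 alone. Among cells with Six3 alone, 8 and 11 had at least 10 Pvalb UMIs, and 7 and 8 had at least 10 of both. In the Sst-high cells Pvalb was at 2701 and 1426 CPM, Six3 at 1133 and 724 CPM, and Avp at 89.6 and 91.7 CPM. These sums do not describe each cell. Sst-high cells with under 10 Pvalb UMIs were 1 and 4 with Six3 alone, 2 and 4 with Gata3 alone, and 0 and 1 with neither. Neuropeptide Y (Npy) reached 10 UMIs in 4 and 2 cells, of which 3 and 2 were also Sst-high.

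Some genes varied more between GABAergic cells than counting would give. The Fano factor, the variance of UMIs over their mean after thinning to 5000 UMIs per cell, had a median of 1.2 and 1.19 over 4323 genes. The precursor-marked cells are included here, and their part in these values was not tested. Trpm3, a cation channel, had 22.8 and 25.7, and Sst 18.2 and 16.4. Trpm3 was at 1735 and 682 CPM with Gata3 alone, against 169 and 226 CPM with Six3 alone. Hs3st4, a heparan sulfate sulfotransferase, had a Fano factor of 22.6 and 14.7 and went the other way, at 86.6 and 280 CPM with Gata3 alone, against 1626 and 1031 CPM with Six3 alone. Dpp10, a potassium channel partner, had 12.9 and 22.3 and was at 830 and 1083 CPM with Gata3 alone, against 2351 and 2340 CPM with Six3 alone. The other 8 of the 12 highest, among them Malat1, Lsamp, Pcdh9, Cntn5, Sgcz and Nrg1, had Fano factors of 13 or more in both mice.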

How the data were processed

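Whole-number UMI counts per gene and barcode were deposited for 1 library from each of 2 mice. Per the submitters' processing notes the reads were processed with Cell Ranger 7.1.0 and the mm10 build, and Seurat 5 is also listed there. Neither the annotation version nor the handling of intronic and antisense reads is stated in those sources. Of 32285 gene identifiers 32158 matched GENCODE vM21, which gave the coordinates.

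The deposited counts were summed per mouse and class over 7 classes (3 neuronal, and oligodendrocytes, astrocytes, microglia and endothelial cells by marker rules), filtered with filterByExpr, scaled with TMM and fitted in edgeR 4.0.16 (R 4.3.3) with class and mouse, since sums of the same number come from the same animal. For the splits the GABAergic sum was replaced by its positive and negative parts. Calls needed a Benjamini-Hochberg adjusted p below 0.05 and a log2 fold change of at least 1. Genes of the rule and each split were not tested, and the standard error is the fold change over the root of F. A split needed 15 cells a side in each mouse, which the Sst and Npy splits lacked. Doublets were scored with Scrublet in scanpy 1.11.5, which marked 2.99% and 2.37% of filtered cells, none and 9 of them GABAergic, and were kept. Steps were tested on simulated counts.

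The members and lists were chosen with earlier results of these data known. Genes were named by rule: from each of 28 lists up to 4 called genes of largest fold change that moved alike in both mice and reached 50 CPM in the higher class, up to 8 higher and 4 lower outside the lists, up to 10 per direction in the splits, and 12 by Fano factor. Part of these are printed, and some genes are not reported here; lineage factors and a few list members below 50 CPM are described after their values were seen. Bounds use a floor of 3 UMIs over both mice. Alternatives covered scaling, test, filters, classes, thinning, cell limits, doublets and the mouse term.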

Additional observations from a re-analysis of the deposited data

Results flagged for a closer look

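Cells outside the rule with both transmitter signals were seen. In mouse 2, 38 filtered cells had at least 5 Gad1 and Gad2 UMIs together with more than 2 Slc17a6 and Slc17a7 UMIs, and in mouse 1 there were 3, a signal in cells that no comparison here used. The number of such droplets that mixed cells would give was not computed. Scrublet marked 2 of the 38 and none of the 3. In the 38 cells Gad2 was at 287 CPM, Gad1 at 12.7 CPM, Slc32a1 at 8.12 CPM and Slc17a6 at 555 CPM. In the 3 cells of mouse 1 Gad1 was at 166 CPM, Gad2 at 257 CPM and Slc32a1 at 73.3 CPM.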

How the results depend on the processing

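Without the replicate block, the counts of genes higher and lower in GABAergic cells were 307 and 449 against glutamatergic cells and 666 higher against habenular cells, with 6 higher and 32 lower in Gata3-positive and 9 and 2 in Six3-positive cells. Thinning to 5000 UMIs gave 308 higher against glutamatergic cells. For Gata3 and then Six3 the higher and lower counts were 7 and 18, then 3 and 5, with neuron classes alone, and 33 and 101, then 57 and 46, with no filter on low counts. A split on thinned UMIs gave 1 and 20 for Gata3, where 8 of 24 genes of the naming rule kept their call. Without doublets 93 were lower for Gata3 and 17 for Six3. Size factors gave 11 and 5 for Six3. Chosen after seeing the data, Gata3 alone against Six3 alone gave 39 higher, Six3 alone against Gata3 alone 74 and 39, and leaving out precursor-marked cells 34 and 16 for Six3 and Pdgfra at -2.12 against glutamatergic and -0.95 against habenular cells. Within the single remaining mouse, with no test, called genes of the same direction and at least 1 in log2 numbered 496 to 509 higher and 616 to 673 lower against glutamatergic, 1014 to 1017 and 723 to 742 against habenular cells, 17 and 57 to 58 for Gata3, and 20 and 9 for Six3. Mouse 2 held 102 GABAergic cells at 10 Gad1 and Gad2 UMIs, 101 at a 5% mitochondrial limit, 101 with no Slc17a6 or Slc17a7, and 107 without precursor-marked cells. Apart from Pdgfra no gene of the naming rule changed direction under these settings, and the cause of the moved counts was not tested. Genes printed outside that rule, such as Tal1, Isl1 and Htr2a against glutamatergic cells, were not followed gene by gene here. The DESeq2 test kept all 66 and 76 calls of genes of the naming rule against glutamatergic and habenular cells. The Sst and Npy splits were fitted under no setting, with 7 and 14 Sst cells and 3 and 1 Npy cells on thinned UMIs.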
